A study of Mus musculus with 10 samples.

Results

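The MHC class I presentation genes are a group of 10 mouse genes, chosen by name: the light chain gene B2m, the heavy chain genes H2-K1, H2-D1, H2-T23 and H2-Q7, the peptide-loading genes Tap1, Tap2 and Tapbp, the trimming peptidase gene Erap1 and the transcriptional activator gene Nlrc5. All 10 were among the 57010 rows of the deposited gene table and among the 18966 genes that passed the filter on low counts. They were measured by bulk mRNA sequencing in 10 libraries of splenic CD8+ T cells from 5 mice, each of which gave an activated and a rested library. The 3 conditional knockout (cKO) mice carried Dusp2fl/fl-E8I-cre+/-, and the 2 control mice carried Dusp2fl/fl-E8I-cre-/-, so both genotypes were homozygous for the floxed Dusp2 allele and cre was present in cKO mice only. Activation lasted 24 h on beads carrying antibodies to CD3 and CD28, which engage the T cell receptor complex and a co-stimulatory receptor, and rested cells were kept for 24 h in the same medium without beads. The groups were activated cKO (3 libraries), activated control (2), rested cKO (3) and rested control (2). E8I-cre acts in CD8 T cells, and since no control mouse carried it, the reduction of Dusp2 and the presence of cre cannot be told apart. cKO mice 1 and 2 and control mouse 1 were male, cKO mouse 3 and control mouse 2 female, and values below are in the order of these mouse numbers. The titles of the cKO mouse 3 libraries disagree with their other labels: that of the library taken here as activated says rested, and that of the library taken as rested says activated and control. Groups follow the genotype and, where given, treatment labels and the library names. In these libraries Il2ra, an activation marker, stood at 464 CPM in the activated and 1.27 CPM in the rested one, against 355 to 426 CPM and 0.94 to 2.47 CPM in the other mice. The sources used here give neither the age nor the strain of the mice.

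MHC class I molecules display short peptides from the cell's own proteins at the surface of nearly all nucleated cells. A heavy chain folds with the light chain beta-2-microglobulin in the endoplasmic reticulum. The TAP1/TAP2 transporter moves peptides in from the cytosol, tapasin (Tapbp) holds the empty class I molecule beside the transporter, and ERAP1 trims the peptides. NLRC5 enters the nucleus and drives transcription of several of these genes through a conserved promoter module. CD8+ T cells recognise class I on other cells and carry it themselves. H2-K1 and H2-D1 encode classical class I heavy chains, while H2-T23 (Qa-1) and H2-Q7 (Qa-2) encode non-classical ones. Dusp2 encodes a nuclear phosphatase that acts on MAP kinases.

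The libraries held 51203786 to 65135435 counts. Dusp2, the targeted gene, stood at 56.3, 46.4 and 52.6 CPM in activated cKO cells, against 292 and 299 CPM in activated control cells. It stood at 25.0, 24.8 and 28.1 CPM in rested cKO cells, against 87.8 and 97.4 CPM in rested control cells. CPM here are counts scaled to the TMM-scaled library total, a share of the RNA sequenced and not molecules per cell. The log2 fold change of Dusp2, cKO over control, was -2.49 (SE 0.07, adjusted p = 1.18e-09) after activation and -1.82 (SE 0.08, adjusted p = 8.09e-08) at rest, by edgeR's quasi-likelihood test. Dusp2 RNA was thus reduced in cKO cells and not absent. By the same test it rose with activation by 1.00 (SE 0.07, adjusted p = 3.58e-08) in cKO and 1.67 (SE 0.08, adjusted p = 5.11e-09) in control cells. The 6 CD8 T cell markers summed to 2340 to 2530 CPM in the activated and 2590 to 2720 CPM in the rested libraries. With activation 1 of them was called higher in each genotype (Trac, log2 fold change 0.80 in both). The other 5 were called lower, Cd8b1 the most (-0.69 in cKO and -0.72 in control cells). Against these sums, 7 B cell markers summed to 2.88 to 3.23 CPM in activated and 4.68 to 6.35 CPM in rested libraries. The 11 myeloid and dendritic cell markers summed to 1.03 to 4.05 CPM over all libraries. Between 1 and 2 of these B cell markers and 2 of these myeloid markers were at 0 in every library of a group. The 3 CD4 T cell markers summed to 12.6 to 33.3 CPM in activated and 2.77 to 9.43 CPM in rested libraries. Of these, Cd4 was at 0.16 to 1.22 CPM and Foxp3 at 0.387 to 0.885 CPM over all libraries and neither was called with activation, while Zbtb7b was at 11.8 to 31.9 CPM in activated and 2.15 to 8.05 CPM in rested libraries (log2 fold change 2.07 in cKO and 2.35 in control cells, called in both). The 7 erythroid and platelet markers summed to at most 0.174 CPM. All 10 genes of an activation check list (such as Cd69 and Il2ra) changed in each genotype, 6 higher and 4 lower after activation.

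Activation was accompanied by unequal changes in the class I genes, and these differed in direction between genes that work in the same complex. A gene was called changed where its Benjamini-Hochberg adjusted p over all genes tested was below 0.05. In cKO cells 8 of 10 class I genes were called, 5 higher (Erap1, Nlrc5, H2-T23, Tapbp, B2m) and 3 lower (H2-Q7, Tap2, H2-D1) after activation. Of all genes tested, 31.5% were called higher and 31.9% lower in that comparison, so a large share of calls was the rule for the whole transcriptome. In control cells 7 of 10 were called, 5 higher and 2 lower, against 28.5% of all genes higher and 27.6% lower. The 5 genes called higher in cKO cells were the 5 called higher in control cells. Of the genes called lower, H2-Q7 and Tap2 were common to both genotypes, which is 2 of 3 in cKO and 2 of 2 in control cells. The share of all genes called in the same direction in both genotypes is not given here. This sharing is therefore not read as particular to class I. Without cKO mouse 3, whose titles disagree with its other labels, 7 of 10 were called in cKO cells, 5 higher and 2 lower. The H2-D1 call was lost (adjusted p = 0.168), and 10521 of all genes were called, against 12016 with that mouse. The median log2 fold change of the 10 genes was 0.18 in cKO and 0.21 in control cells, against -0.01 and 0.00 over all genes tested.

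**Figure D1:**
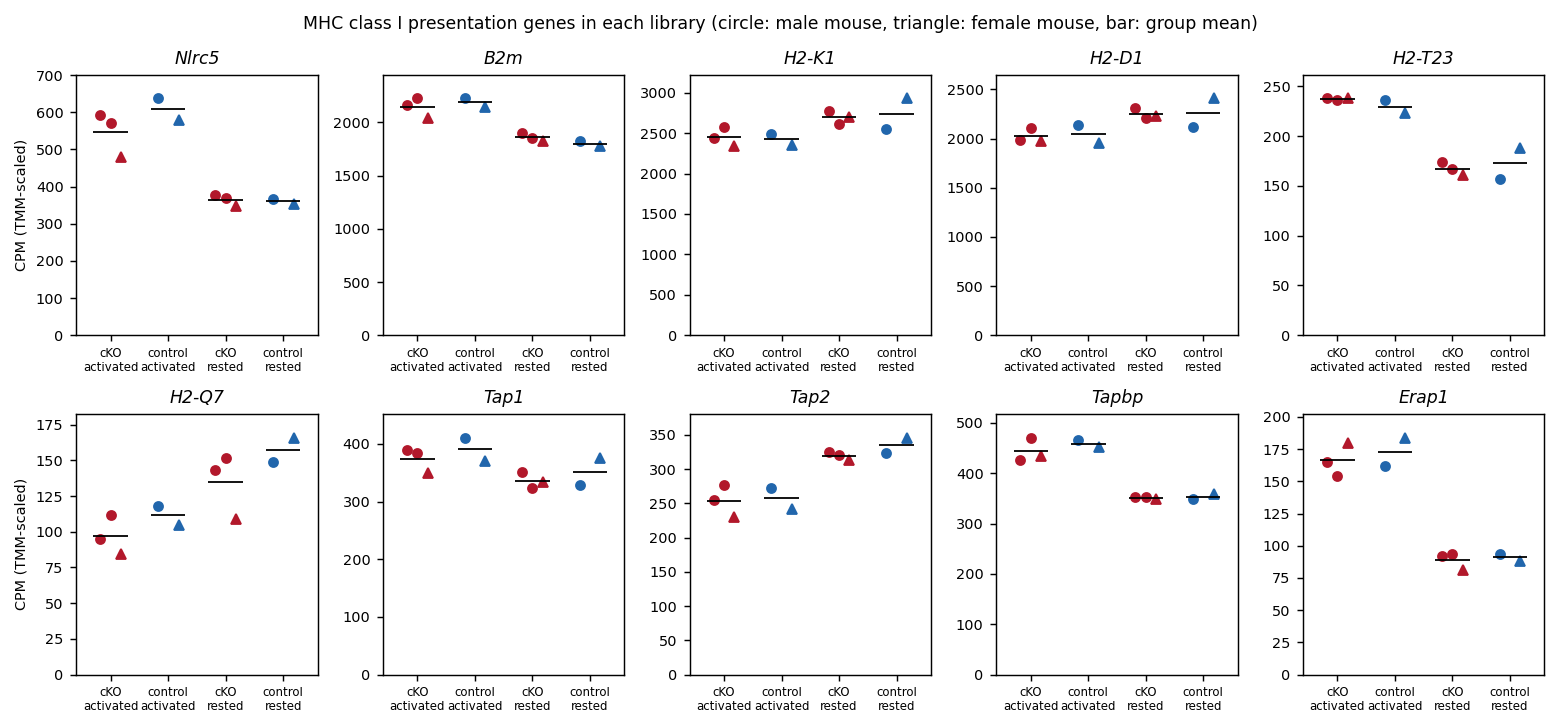
Level of each class I gene in each library, in CPM of the TMM-scaled library on a linear axis from 0, with 1 panel per gene. Points are libraries (circles for male mice, triangles for female mice), bars are group means, and red and blue mark cKO and control mice. Erap1 and Nlrc5 stand higher in both activated groups than in both rested groups. The cKO and control ranges of 1 state overlap or, for B2m at rest, nearly touch (1825 and 1823 CPM).

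Nlrc5 encodes the activator of the class I promoters and lies at mm39 chr8:95160984-95253900. It stood at 594, 570 and 479 CPM in activated cKO cells, against 378, 370 and 347 CPM in rested cKO cells. Control cells held 638 and 579 CPM of it after activation, against 368 and 353 CPM at rest. The activated and rested libraries did not overlap in either genotype, and the level was higher in 5 of 5 mice. The share of all genes whose states are so separated is not given here. Separation is therefore not read as particular to Nlrc5 or to the genes below. Nlrc5 rose by a log2 ratio (log2 fold change, activated over rested) of 0.58 (SE 0.05, adjusted p = 6.35e-07) in cKO and 0.75 (SE 0.07, adjusted p = 6.7e-07) in control cells, by edgeR's quasi-likelihood test. The opposite-strand 9330175E14Rik overlaps 748 bases of its interval and averaged 26.6 CPM against 468 CPM for Nlrc5.

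B2m encodes the light chain shared by the class I molecules and lies at mm39 chr2:121978167-121983564. Its levels were 2162, 2226 and 2044 CPM in activated cKO cells, against 1898, 1855 and 1825 CPM in rested cKO cells. In control cells they were 2227 and 2147 CPM after activation, against 1823 and 1779 CPM at rest. B2m was higher in 5 of 5 mice after activation, without overlap between the states. The rise was small, with a log2 ratio of 0.20 (SE 0.05, adjusted p = 0.00231) in cKO and 0.28 (SE 0.06, adjusted p = 0.00128) in control cells. The control call rested on both mice: without control mouse 1 the value was 0.27 with an adjusted p of 0.0654. The table's B2m interval lies wholly within that of Patl2, an opposite-strand gene that averaged 14.9 CPM against 2000 CPM for B2m.

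The classical heavy chain genes H2-K1 and H2-D1 differed little between the states. H2-K1 (mm39 chr17:34214991-34219321) stood at 2443, 2575 and 2343 CPM in activated cKO cells, against 2771, 2617 and 2694 CPM in rested cKO cells. The control values were 2492 and 2356 CPM after activation, against 2553 and 2932 CPM at rest. Every mouse had less H2-K1 in its activated library, but the difference did not pass the test in either genotype, with a log2 ratio of -0.13 (SE 0.06, adjusted p = 0.083) in cKO and -0.18 (SE 0.08, adjusted p = 0.0702) in control cells. H2-D1 (mm39 chr17:35481706-35486475) stood at 1988, 2111 and 1975 CPM in activated cKO cells, against 2307, 2208 and 2231 CPM in rested cKO cells. The control values were 2134 and 1959 CPM after activation, against 2117 and 2410 CPM at rest, and these overlap. Its log2 fold change was -0.15 (SE 0.06, adjusted p = 0.0496) in cKO cells, a call just inside the threshold. That call was lost under 13 of 14 alternatives, among them the replicate block, which pairs the libraries of a mouse (adjusted p = 0.0908). In control cells H2-D1 differed by -0.15 (SE 0.08, adjusted p = 0.125).

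The non-classical heavy chain genes moved in opposite directions. H2-T23 encodes Qa-1, the ligand of the CD94/NKG2A receptor, and lies at mm39 chr17:36340665-36343747. Its levels were 238, 236 and 238 CPM in activated cKO cells, against 174, 167 and 161 CPM in rested cKO cells. In control cells they were 236 and 223 CPM after activation, against 157 and 188 CPM at rest. H2-T23 rose without overlap in both genotypes, by a log2 ratio of 0.50 (SE 0.06, adjusted p = 1.23e-05) in cKO and 0.41 (SE 0.08, adjusted p = 0.000542) in control cells. Without control mouse 1 the control value was 0.25 with an adjusted p of 0.0636. The opposite-strand A930015D03Rik covers the whole H2-T23 interval and averaged 5.21 CPM against 202 CPM.

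H2-Q7, a Qa-2 gene at mm39 chr17:35658131-35662749, stood at 94.6, 112 and 84.4 CPM in activated cKO cells, against 143, 152 and 109 CPM in rested cKO cells. Control cells had 118 and 105 CPM after activation, against 149 and 166 CPM at rest. The cKO states overlap (112 CPM in activated mouse 2, 109 CPM in rested mouse 3), the female cKO mouse was the lowest in both, and the level was lower after activation in 5 of 5 mice. H2-Q7 fell by 0.47 on the log2 scale (SE 0.10, adjusted p = 0.00249) in cKO cells. In control cells it fell by 0.51 (SE 0.13, adjusted p = 0.00607), and without control mouse 2 the value was -0.32 with an adjusted p of 0.0571. H2-Q7 shares sequence with its neighbours: 17.0% of the 75-base windows of its annotated transcripts also occur in transcripts of other genes, most often of H2-Q10 (8.88%), so its counts could include or lose reads of related genes. The same share was 3.1% for H2-K1, 5.56% for H2-D1, 5.91% for H2-T23 and 0% for B2m.

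Promoter sequence shows what B2m and the heavy chain genes H2-K1, H2-D1 and H2-Q7 have in common beside their unequal changes. RefSeq promoter windows (build GRCm38.p6, 250 bases before to 50 bases after the annotated start) were at hand for 8 of the 10 genes, all but Tap2 and Nlrc5. The cores of the class I promoter module, TGACG (the X2 box) followed 20 to 30 bases later by ATTGG (the Y box), were found on either strand in 4 of 8 windows, those of B2m, H2-K1, H2-D1 and H2-Q7. Of all 32851 mouse promoter windows, 0.435% held that pair. Since the pair was searched as the known class I promoter module, its presence in these genes is not a finding of these data. The stretches below show it in these 4 genes, 5′ to 3′ on the gene's strand, with capitals for the paired TGACG and ATTGG and, on either strand, for the NF-kB consensus, the interferon consensus element TTTCACTT and the element GAAANNGAAA.
B2m, chr2:122147546-122147640, plus strand: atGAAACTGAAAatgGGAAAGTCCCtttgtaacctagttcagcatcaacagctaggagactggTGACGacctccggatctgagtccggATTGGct
H2-K1, chr17:34000357-34000460, minus strand: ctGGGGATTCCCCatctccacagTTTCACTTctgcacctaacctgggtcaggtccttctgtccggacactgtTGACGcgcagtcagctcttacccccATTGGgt
H2-D1, chr17:35262921-35263024, plus strand: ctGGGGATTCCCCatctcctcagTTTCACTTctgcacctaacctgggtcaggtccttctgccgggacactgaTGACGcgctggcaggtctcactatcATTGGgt
H2-Q7, chr17:35439020-35439121, plus strand: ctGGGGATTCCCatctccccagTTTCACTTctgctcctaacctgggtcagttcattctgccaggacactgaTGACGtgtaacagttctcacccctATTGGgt
From the start of TGACG to the start of ATTGG the distance was 25 bases in B2m, H2-K1 and H2-D1 and 24 bases in H2-Q7. These 3 heavy chain genes share the order of an NF-kB consensus, TTTCACTT, TGACG and ATTGG. In B2m, GAAANNGAAA comes first and a reverse-strand NF-kB consensus after it, ahead of TGACG and then ATTGG. Searched singly on both strands, the NF-kB consensus was in the windows of B2m, H2-K1, H2-D1 and H2-Q7 (8.46% of all windows), TTTCACTT in those of H2-K1, H2-D1, H2-Q7 and Erap1 (1.6%), and GAAANNGAAA in those of B2m, H2-T23 and Erap1 (3.44%). TGACG alone was in 20.8% and ATTGG alone in 37.4% of all windows, and the interferon-type elements can overlap each other. Genes with the paired boxes thus include one that rose after activation in both genotypes (B2m) and one that fell in both (H2-Q7). The windows are of the reference genome, and a match of letters is no evidence of binding. Nor does a window without these exact letters at that spacing show that the module is absent. H2-K1 has 2 annotated starts, of which the first listed was used.

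The genes of the peptide-loading complex also moved apart. Tap1 and Tap2 encode the partner chains of the peptide transporter and lie close together in the class II region. Tap1 (mm39 chr17:34406527-34416199) stood at 389, 385 and 349 CPM in activated cKO cells, against 352, 323 and 334 CPM in rested cKO cells. Control cells held 411 and 370 CPM after activation, against 328 and 375 CPM at rest. The states overlap in both genotypes, and Tap1 was not called, with a log2 ratio of 0.15 (SE 0.07, adjusted p = 0.0593) in cKO and 0.15 (SE 0.08, adjusted p = 0.14) in control cells. The cKO value lay near the threshold and was called under 9 of 14 alternatives, with adjusted p from 0.00837 to 0.229. The opposite-strand gene Psmb9 overlaps 212 bases of the Tap1 interval and averaged 75.9 CPM against 362 CPM for Tap1.

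Tap2 (mm39 chr17:34422501-34435295) stood at 255, 276 and 230 CPM in activated cKO cells, against 325, 320 and 313 CPM in rested cKO cells. The control levels were 273 and 242 CPM after activation, against 323 and 346 CPM at rest. Every activated library lay below every rested one. Tap2 fell by 0.33 on the log2 scale (SE 0.06, adjusted p = 0.000389) in cKO and by 0.38 (SE 0.08, adjusted p = 0.000861) in control cells. Without control mouse 2 the control value was -0.23. The opposite-strand Gm20496 and Gm15821 overlap 1923 and 3148 bases of the Tap2 interval. They averaged 0.354 and 0.246 CPM against 290 CPM for Tap2, and 8.27% of its 75-base windows also occur in other genes.

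Tapbp encodes tapasin, which bridges the transporter and the empty class I molecule, and lies at mm39 chr17:34134873-34148266. Its levels were 426, 471 and 435 CPM in activated cKO cells, against 352, 353 and 349 CPM in rested cKO cells. In control cells they were 466 and 452 CPM after activation, against 348 and 358 CPM at rest. Tapbp rose without overlap, by a log2 ratio of 0.34 (SE 0.05, adjusted p = 6.47e-05) in cKO and 0.38 (SE 0.06, adjusted p = 0.000189) in control cells. Of the 75-base windows of its transcripts, 18.6% also occur in other genes, mostly in Gm19412 (1.25 CPM on average). Zbtb22, a same-strand gene, overlaps 3422 bases of its interval and averaged 60.2 CPM against 401 CPM for Tapbp. Zbtb22 fell, by 0.50 on the log2 scale in cKO (adjusted p = 1.06e-05) and by 0.54 in control cells (adjusted p = 5.06e-05).

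Erap1, the endoplasmic reticulum aminopeptidase gene at mm39 chr13:74787687-74841320, had the largest rise of the 10 genes in both genotypes. It stood at 165, 154 and 180 CPM in activated cKO cells, against 91.8, 93.4 and 81.4 CPM in rested cKO cells. Control cells showed 162 and 184 CPM after activation, against 93.6 and 88.4 CPM at rest. The states were far apart, and both female mice had the highest activated and the lowest rested value of their genotype. The log2 fold change was 0.90 (SE 0.07, adjusted p = 2.18e-07) in cKO and 0.93 (SE 0.09, adjusted p = 1.96e-06) in control cells. The last 834 bases of its interval overlap the opposite-strand gene Cast, the calpain inhibitor gene, with which 10.4% of its 75-base windows are shared. Cast averaged 277 CPM against 129 CPM for Erap1 and fell, by 0.38 on the log2 scale in cKO (adjusted p = 8.55e-05) and by 0.42 in control cells (adjusted p = 0.00028).

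**Figure D2:**
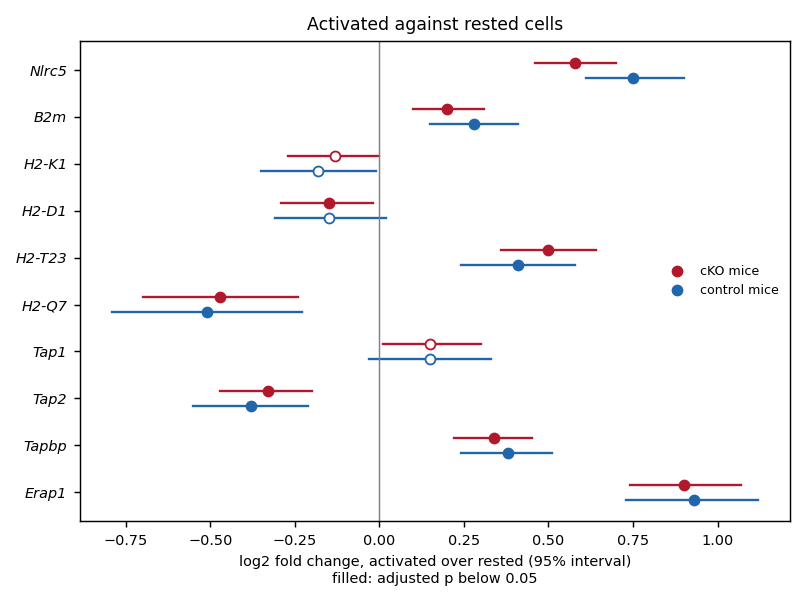
Log2 fold change of each class I gene, activated over rested, in cKO mice (red) and control mice (blue), with its 95% interval from edgeR's quasi-likelihood fit; filled points had an adjusted p below 0.05. Erap1 (0.90 and 0.93) and Nlrc5 (0.58 and 0.75) lie farthest to the right, and H2-Q7 (-0.47 and -0.51) farthest to the left.

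Activated cells differed from rested ones in markers other than class I as well. Class II genes (H2-Aa, H2-Ab1, H2-Eb1 and Cd74) summed to 22.4 to 38.5 CPM in activated and 0.748 to 1.33 CPM in rested libraries, with none of the 4 at 0 in any group. In these sums Cd74, the invariant chain gene, was the one called higher in both genotypes, with a log2 fold change of 5.46 in cKO and 5.33 in control cells. The 8 heat shock and stress genes summed to 1170 to 1420 CPM in activated and 299 to 339 CPM in rested libraries. Whether these differences take part in the class I changes was not tested. In bulk libraries, a lower CPM can come from fewer cells of a type, from less of that RNA per cell or from more of other RNA. These cannot be told apart.

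Ratios between class I genes within a library do not depend on how libraries are scaled, and 4 were computed from the deposited FPKM values (fragments scaled by gene length and library total). The Tap1 to Tap2 ratio was 1.05, 0.962 and 1.05 in activated cKO and 1.04 and 1.06 in activated control cells. At rest it was 0.748, 0.697 and 0.737 in cKO and 0.702 and 0.748 in control cells. Tap1 and Tap2 were thus near 1 to 1 per length in activated cells, and Tap2 was the more abundant at rest. The ratio was higher after activation in 5 of 5 mice, by 0.51 ± 0.04 on the log2 scale (SD, n = 5), with an exact two-sided sign-flip p of 0.0625, the smallest that 5 mice allow (0.0833 after Benjamini-Hochberg adjustment over the 4 ratios). This design cannot reach 0.05.

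The ratio of the light chain gene to the heavy chain gene, B2m to H2-K1, was 3.02, 2.95 and 2.98 in activated cKO and 3.05 and 3.11 in activated control cells. At rest it was 2.34, 2.42 and 2.31 in cKO and 2.44 and 2.07 in control cells. The log2 difference, activated minus rested, was 0.39 ± 0.12 (SD, n = 5), higher in 5 of 5 mice (exact p = 0.0625). H2-T23 to H2-K1 was 0.0931 to 0.103 in activated cells of both genotypes and 0.0609 to 0.0652 in rested cells, a log2 difference of 0.62 ± 0.09 (SD, n = 5), also in 5 of 5 mice (exact p = 0.0625). H2-K1 to H2-D1, by contrast, was 1.03 to 1.08 in activated and 1.04 to 1.07 in rested cells. It was higher after activation in 2 of 5 mice (exact p = 0.875).

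**Figure D3:**
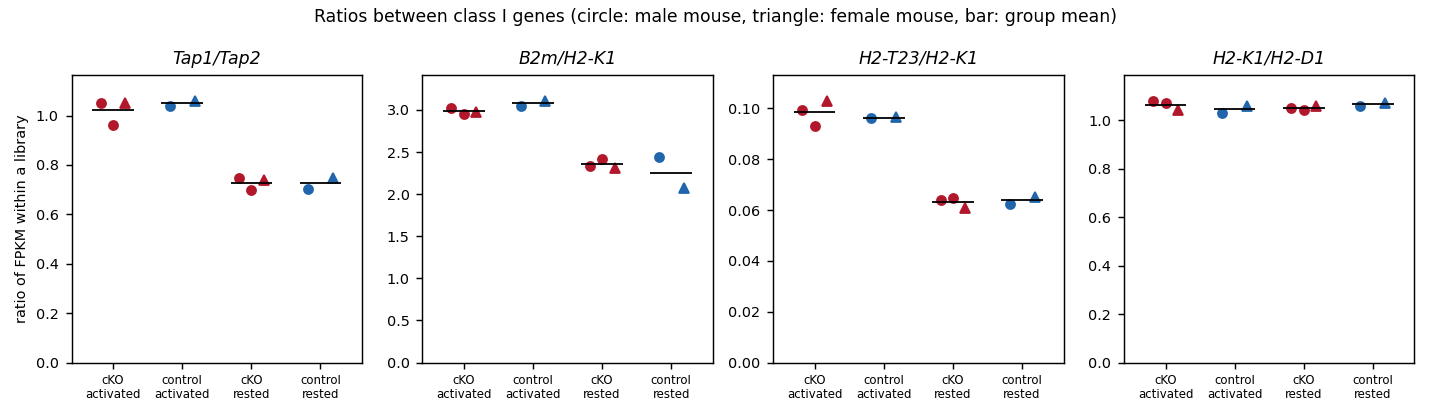
Ratio of FPKM of gene pairs within each library, on linear axes from 0, for cKO (red) and control (blue) mice; circles are male and triangles female mice, bars are group means. Tap1/Tap2, B2m/H2-K1 and H2-T23/H2-K1 lie higher in all activated than in all rested libraries, and H2-K1/H2-D1 stays between 1.03 and 1.08.

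Per gene length, B2m was the most abundant of the group in every condition, at 2548 ± 118 FPKM in activated cKO (SD, n = 3), 2598 ± 87.0 in activated control (n = 2), 2112 ± 29.8 in rested cKO (n = 3) and 2043 ± 29.7 FPKM in rested control cells (n = 2). By mean FPKM it ranked 7 among all genes of the table in both activated groups, 9 in rested cKO and 10 in rested control cells. H2-K1 followed at 854 ± 43.3, 844 ± 39.9, 896 ± 24.4 and 912 ± 91.9 FPKM in the same order of groups. H2-D1, at 803 ± 32.2, 812 ± 55.2, 852 ± 17.2 and 857 ± 81.4 FPKM, overlapped H2-K1 in each group. Tapbp came next at 94.7 to 129 FPKM by group mean, well below the classical heavy chains.

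The order below Tapbp differed between states. At rest Tap2 was next (82.6 ± 1.06 FPKM in cKO and 86.4 ± 4.48 FPKM in control cells), above Tap1 and H2-T23, whose ranges overlap each other. After activation H2-T23 was next (84.0 ± 0.327 FPKM in cKO and 81.3 ± 3.76 FPKM in control cells), and Tap1, Tap2 and Nlrc5 followed between 66.0 and 73.3 FPKM by group mean with overlapping ranges. Erap1 was last at rest, at 11.9 ± 0.819 FPKM in cKO and 12.2 ± 0.453 FPKM in control cells, below H2-Q7 at 30.8 ± 5.07 and 36.0 ± 2.75 FPKM. After activation Erap1 (23.4 ± 1.75 FPKM in cKO, 24.3 ± 1.92 FPKM in control cells) and H2-Q7 (23.2 ± 3.36 and 26.8 ± 2.52 FPKM) overlapped. Within a group the spread of CPM was smallest for H2-T23 in activated cKO cells, with a coefficient of variation of 0.55%, and largest for H2-Q7 in rested cKO cells, at 16.9%.

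**Figure D4:**
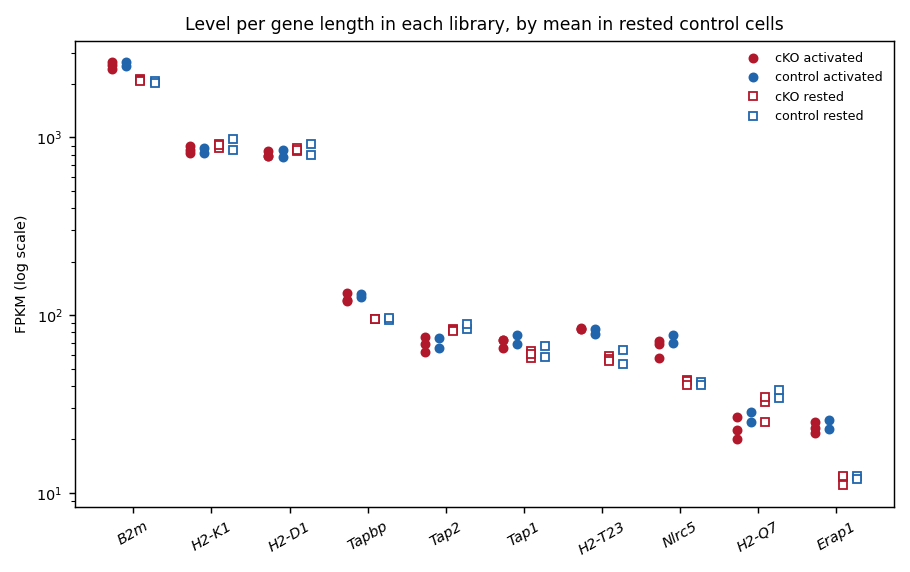
FPKM of each class I gene in each library on a log axis, with genes ordered by their mean in rested control cells. Filled circles are activated and open squares rested libraries, red is cKO and blue control; levels span from B2m at 2043 to 2598 FPKM by group mean down to Erap1 at 11.9 to 24.3 FPKM.

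The comparison of genotypes asks whether class I expression differed where Dusp2 RNA was lower but still present. After activation none of the 10 genes was called between cKO and control cells (0 of 10), and 0.0422% of all genes tested were, 8 genes in all. Their log2 fold changes, cKO over control, had a median of -0.04 and ran from -0.24 (H2-Q7) to 0.05 (H2-T23). The only unadjusted p below 0.05 was that of Nlrc5, at -0.18 (SE 0.06, unadjusted p = 0.0111, adjusted p = 0.735 by edgeR). Nlrc5 was 594, 570 and 479 CPM in activated cKO cells, against 638 and 579 CPM in activated control cells, which overlap. Within males its difference was -0.13 (2 cKO mice and 1 control mouse) and within females -0.27 (1 and 1).

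At rest 0 of 10 were called as well, again against 0.0422% of all genes. The median log2 fold change was -0.03, with a range from -0.28 (H2-Q7) to 0.04 (B2m). H2-Q7 had the only unadjusted p below 0.05 (-0.28, SE 0.12, unadjusted p = 0.0364, adjusted p = 1). It was 143, 152 and 109 CPM in rested cKO cells, against 149 and 166 CPM in rested control cells. Within females the difference was -0.61, between 1 cKO and 1 control mouse, and within males it was -0.02. Without the low-count filter, H2-Q7 at rest was called (-0.29, adjusted p = 0.0105 by edgeR). That setting called 204 of all genes at rest, against 8 with the filter. At rest B2m stood at 1898, 1855 and 1825 CPM in cKO cells, against 1823 and 1779 CPM in control cells. Its log2 ratio was 0.04 (SE 0.06, adjusted p = 1). The genotypes were separated only narrowly (1825 against 1823 CPM), and the share of all genes so separated is not given here.

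Within sexes, the log2 difference of H2-T23 at rest was 0.12 in males and -0.22 in females, and after activation it was 0.01 in males and 0.09 in females. H2-Q7 after activation was -0.20 in males and -0.31 in females. Those of the remaining genes, Nlrc5 at rest included, lay between -0.16 and 0.09 in either state. DESeq2 and limma also called 0 of 10 in both states, as did edgeR without cKO mouse 3. The 95% intervals of the log2 difference, leaving H2-Q7 aside, lay within -0.31 to 0.21 after activation and within -0.24 to 0.16 at rest for the other 9 genes. These bounds correspond to 0.807 to 1.16 and 0.847 to 1.12 of the control level. For H2-Q7 they were -0.50 to 0.02 after activation and -0.54 to -0.02 at rest.

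**Figure D5:**
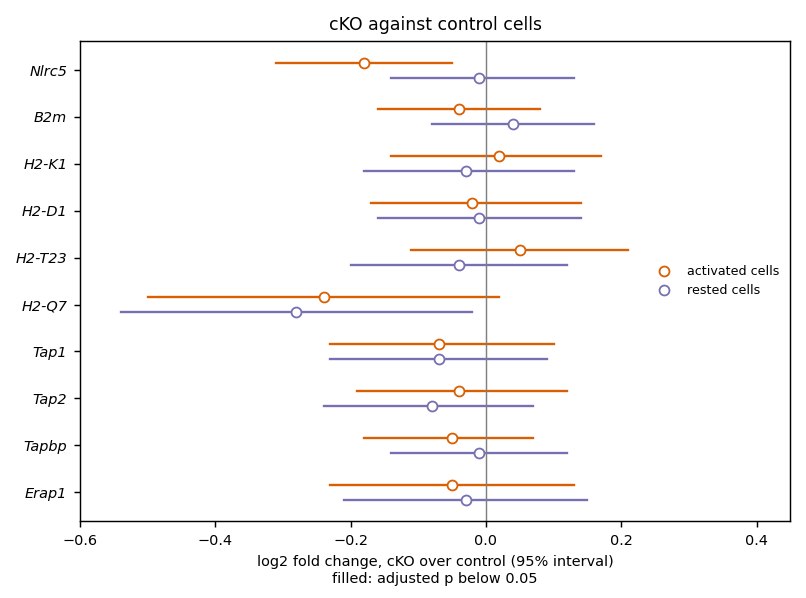
Log2 fold change of each class I gene, cKO over control, in activated (orange) and rested (purple) cells, with its 95% interval from edgeR's quasi-likelihood fit; open points had an adjusted p of 0.05 or more. No gene passed the test, H2-Q7 has the widest intervals, and Nlrc5 after activation lies at -0.18.

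NK cell markers summed to more in cKO than in control cells after activation, while the ranges overlap at rest, and the sums were not tested. The 6 markers summed to 5.6 to 8.99 CPM in activated cKO and 2.32 to 5.17 CPM in activated control cells. At rest they summed to 3.35 to 8.53 CPM in cKO and 1.79 to 4.25 CPM in control cells, with 1 marker at 0 in each rested group. None of the 5 that could be tested was called in either state, and their part in the genotype values of class I genes was not tested.

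The interaction asks whether the change with activation differed between cKO and control cells. None of the class I genes was called (0 of 10), none of them had an unadjusted p below 0.05, and 0% of all genes were called by edgeR, with 519 of the 18966 at an unadjusted p below 0.05. DESeq2 called 3 genes in the interaction and limma none, no class I gene among them. Nlrc5 had the smallest p of the group, with a rise smaller by 0.17 in cKO cells (interaction -0.17, SE 0.09, unadjusted p = 0.0656, adjusted p = 1). The 10 intervals lay within -0.36 to 0.41 on the log2 scale.

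Other genes of the pathway moved with activation too, by lists chosen with earlier results of these data known. In the list of the immunoproteasome and its activator, 3 of 6 genes were called higher and 0 lower in each genotype, against 31.5% of all genes higher and 31.9% lower in cKO and 28.5% and 27.6% in control cells. These were the activator genes Psme1, Psme2 and Psme3, whose products bind the ends of the proteasome core. Psme2 stood at 281, 274 and 275 CPM in activated cKO cells, against 112, 114 and 114 CPM in rested cKO cells, a log2 fold change of 1.29 (adjusted p = 1.18e-10). In control cells it stood at 270 and 278 CPM, against 112 and 113 CPM at rest (log2 fold change 1.28). The groups were far apart. Psme3 rose by 1.56 in cKO and 1.50 in control cells, and Psme1 by 0.92 and 0.91. The inducible catalytic subunit genes Psmb8, Psmb9 and Psmb10 were not called, with log2 fold changes of -0.14, 0.02 and -0.09 in cKO and -0.06, 0.00 and -0.02 in control cells.

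Among 16 genes of peptide trimming and loading, 11 were called higher and 3 lower in cKO cells and 10 higher and 3 lower in control cells, with medians of 0.61 and 0.55. Of all genes, 31.5% were called higher and 31.9% lower in cKO cells and 28.5% and 27.6% in control cells, with medians of -0.01 and 0.00. Thop1, which encodes a cytosolic oligopeptidase, stood at 35.2, 29.5 and 46.2 CPM in activated cKO cells, against 5.88, 6.43 and 6.73 CPM in rested cKO cells. It rose by a log2 fold change of 2.53 in cKO and 2.69 in control cells. Lap3, a leucine aminopeptidase gene, rose by 2.26 and 2.39, and Tapbpl, which encodes the tapasin-related peptide editor TAPBPR, by 1.03 and 1.09. The genes called lower were the peptidase genes Lnpep (-0.83 and -0.68), Npepps (-0.30 and -0.28) and Tpp2 (-0.25 and -0.21).

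Of 25 genes known to regulate class I, 12 were called higher and 8 lower in cKO cells and 11 higher and 6 lower in control cells. The shares of all genes were 31.5% higher and 31.9% lower in cKO and 28.5% and 27.6% in control cells, so the calls to lower levels were near the background. Nfkb1, an NF-kB subunit gene, stood at 904, 856 and 1031 CPM in activated cKO cells, against 226, 218 and 238 CPM in rested cKO cells. Its log2 fold change was 2.03 in cKO and 2.13 in control cells. Irf1, an interferon-induced transcription factor gene, rose by 1.21 and 1.38. The 3 RFX complex genes, whose products bind the class I module beside NLRC5, moved apart: Rfx5 rose by 1.44 in cKO and 1.48 in control cells, Rfxap changed by -0.41 and -0.55, and Rfxank differed by -0.21 (adjusted p = 0.0198) and -0.14 (adjusted p = 0.184). The RFX genes were singled out after their values were seen.

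The other class I heavy chain and class I-like genes numbered 19, of which 14 could be tested. In cKO cells 4 were called higher and 5 lower, in control cells 2 higher and 5 lower, with medians of 0.01 and 0.00. Against 31.5% higher and 31.9% lower of all genes in cKO and 28.5% and 27.6% in control cells, these counts were near or, for higher calls in control cells, below the background. Fcgrt, which encodes the neonatal Fc receptor heavy chain, stood at 11.3, 12.8 and 4.02 CPM in activated cKO cells, against 54.3, 45.7 and 17.9 CPM in rested cKO cells. In control cells it stood at 12.2 and 5.4 CPM, against 40.8 and 20.2 CPM at rest. The female mice were lowest in each of these groups. Fcgrt changed by -2.07 in cKO and -1.83 in control cells on the log2 scale, and without the sex term the control value was -1.80 with an adjusted p of 0.104. Cd1d1, a lipid-presenting molecule gene, changed by -1.61 and -1.64, and Mr1, whose product presents microbial metabolites to MAIT cells, by -1.33 and -1.29. No gene of these 4 pathway lists was called between genotypes in either state or in the interaction.

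The profiles of the group over the 10 libraries were compared by the root mean square difference of log2 CPM, each gene centred on its own mean. H2-K1 and H2-D1 were the closest pair of the group (0.0208), and H2-Q7 and Erap1 the farthest (0.724). The candidates were 9495 other genes that averaged 5 CPM or more, leaving out predicted and unnamed genes and those with numbered Gm or Rik names. Among these candidates, those closest to H2-K1 were Otud5 (0.0329), Ist1 (0.0341) and Stard3 (0.0354). The closest to Nlrc5 were Cflar (0.0698), Clcn5 (0.074) and Mid1ip1 (0.0773), so its nearest profiles were less close than those of H2-K1. Profiles were not scaled by their spread, so genes that change little, such as H2-K1, lie close to other such genes.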

How the data were processed

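Bulk RNA of 10 libraries was made with a stranded mRNA kit, per the labels' protocols. The submitters' processing notes name the mm39 build, Subread, FastQC and MultiQC. The sources used here give no settings, annotation release, read length or use of strand in counting. The authors deposited whole-number counts per gene with no normalization, and FPKM values, which were used here for levels between genes. The members and lists were chosen with earlier results of these data known. All 10 members are named, with, per pathway list, the 3 changed genes of smallest p in cKO activation and the 3 nearest profiles to H2-K1 and Nlrc5. One gene that this rule names is not reported here.

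Groups follow the genotype, treatment and library-name labels; the titles of the cKO mouse 3 libraries exchange the treatment state, and 1 of them names the other genotype. Sex (male in cKO mice 1 and 2 and control mouse 1) goes with the number that opens a mouse's name, so the sex term stands for both. Counts were fitted in R 4.3.3 with edgeR 4.0.16 (TMM, filterByExpr by group, robust quasi-likelihood, group means plus sex, all 10 libraries, 5 residual degrees of freedom). P-values were Benjamini-Hochberg adjusted over 18966 genes; SE is the log2 fold change over the root of F, and intervals are 95%. The script was tested on simulated data. Totals were 51203786 to 65135435 counts; chi-square over degrees of freedom between replicates was 8.55 to 41.7, beyond sampling noise. The activated and rested library of a mouse come from 1 animal, so they were treated as paired in an alternative with mouse as a block. Their deviations from group means correlated at 0.25, 0.15 and 0.33 in cKO mice. For the 2 control mice 0.36 is a single value, since their deviations are equal and opposite. Sex was not removed from these deviations. Alternatives were other scalings and filters, no sex term, only the groups compared, DESeq2 1.42.0, limma 3.58.1 on log2(FPKM + 0.5) and leaving out each mouse. The strand of genes and the shared windows were read from the GENCODE M21 annotation of another build, and promoters from RefSeq (GRCm38.p6).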

Additional observations from a re-analysis of the deposited data

How the results depend on the processing

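Every call of Nlrc5, Erap1 and Tapbp with activation held under all 14 alternatives in both genotypes, as did those of B2m, H2-T23, H2-Q7 and Tap2 in cKO cells. In control cells the last 4 were each lost once, by leaving out 1 control mouse, which leaves a lone control mouse assumed to vary like the others. The activation calls numbered 7 to 10 of 10 in cKO and 6 to 8 in control cells. With the replicate block (mouse), which pairs libraries of 1 animal, they numbered 7 in cKO and 7 in control cells and the interaction had 0. H2-D1 in cKO cells was the only class I call that it changed. Over all genes, activation calls numbered 8871 to 12025 in cKO cells and, with both control mice kept, 8269 to 10646 in control cells. The lowest of each came with the stricter filter of at least 5 CPM in 2 libraries. The main fit had 12016 and 10631. Leaving out a control mouse moved H2-D1 with activation in control cells between -0.30 and 0.02 and Tap1 between -0.02 and 0.33. H2-K1 with activation was called without the low-count filter in both genotypes (adjusted p = 0.0402 in cKO, 0.0136 in control) and without control mouse 1 in control cells (0.0416).

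The count between genotypes at rest became 1 without the low-count filter (H2-Q7). No other alternative gave a class I call between genotypes or in the interaction. Directions of uncalled values turned when mice were left out. At rest the ranges over all alternatives were -0.17 to 0.09 for H2-K1, -0.14 to 0.09 for H2-D1 and -0.21 to 0.10 for H2-T23. They were -0.23 to 0.05 for Tap1, -0.22 to 0.02 for Tap2 and -0.07 to 0.02 for Tapbp. For Nlrc5 they were -0.10 to 0.05 (0.02 without the sex term), and for Erap1 -0.08 to 0.05. After activation they were -0.01 to 0.08 for H2-K1, -0.07 to 0.03 for H2-D1, -0.08 to 0.03 for Tap2 and -0.14 to 0.03 for Erap1. In the interaction they were -0.10 to 0.21 for H2-K1, -0.16 to 0.17 for H2-D1, -0.08 to 0.28 for H2-T23, -0.13 to 0.22 for H2-Q7, -0.09 to 0.21 for Tap2, -0.08 to 0.03 for Tapbp and -0.14 to 0.12 for Erap1. The cause was not tested.

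Over all genes, the 8 calls between genotypes in each state became 204 at rest and 211 after activation without the filter, 29 and 21 with DESeq2, 5 and 5 with at least 5 CPM in 2 libraries, and 5 and 4 with limma. They became 25 and 49 without cKO mouse 2, 15 and 12 without control mouse 1, and 5 after activation with only the groups compared. The interaction had 39 calls without the filter and 3 with DESeq2 or without cKO mouse 3. Activation in control cells had 6981 calls without control mouse 2, against 10631. The order by FPKM was the same with CPM per kilobase.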
